A study of Mus musculus with 2 samples.

Results

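The barcodes described here are those of the 1cyc library in which genes encoded by the mitochondrial DNA (names starting with mt-) gave at least 20% of all UMIs (unique molecular identifiers, 1 per captured transcript). This held for 2275 of the 4321 barcodes of that library (52.6%, exact 95% interval 51.1 to 54.1), out of 6872 barcodes in the whole series. They were set against the 591 barcodes of the same library with under 5% mt- UMIs and 262 to 1000 total UMIs, called low-mitochondrial barcodes below. The members were chosen by their mt- share, so that share is a description, and all other genes are scaled to counts per 1e6 UMIs of genes not starting with mt- (CPM).

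The series profiled nuclei of mouse brown adipose tissue in 2 libraries. Both groups were C57BL/6 mice, an inbred laboratory strain, and the sources used here give neither their age nor their sex. The TN group was housed at thermoneutrality, a temperature at which a mouse needs no extra heat production, and the 1cyc group had a transient acute cold exposure 4 days before sampling. Nuclei of 5 mice were pooled per group, sorted as DAPI-positive, meaning that they carried DNA, and loaded on the 10X Genomics droplet platform for polyA RNA. With 1 pooled library per group no test between conditions was possible, and the effect of cold cannot be told apart from that of the library. Barcodes of 1 library are not replicates, so no p-value is given, and every interval is a 95% interval for counting error alone.

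Brown fat produces heat in mitochondria, where the respiratory chain pumps protons and the uncoupling protein Ucp1 lets them flow back. The mitochondrial genome is copied into long transcripts of both strands that are cut into mRNAs for subunits of complexes I, III, IV and V of that chain. These mRNAs are made and translated inside mitochondria, in the cytoplasm, while unspliced transcripts and Malat1, a long non-coding RNA retained in the nucleus, are nuclear RNA.

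The neighbouring reading frames that the results turn on share bases, and the ends below show where the annotated end of 1 gene lies inside another. Where the captured transcripts themselves end was not measured, and the 13 annotated mt- genes are called mRNAs below. Each annotated end is printed 5′ to 3′ on its own strand (GENCODE M21 transcripts, mm10), and capitals mark the bases shared with the neighbouring gene.
mt-Nd4l, chrM:10144-10173, + strand, shared with mt-Nd4: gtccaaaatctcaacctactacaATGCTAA
mt-Nd5, chrM:13536-13565, + strand, shared with mt-Nd6: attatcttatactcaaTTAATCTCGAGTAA
mt-Nd6, chrM:13552-13581, - strand, shared with mt-Nd5: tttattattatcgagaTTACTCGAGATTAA
mt-Atp8, chrM:7920-7969, + strand, shared with mt-Atp6: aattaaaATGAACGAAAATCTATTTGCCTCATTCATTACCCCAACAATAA
The shared stretches were 7, 14, 14 and 43 bases long. The first pair and the last lie on 1 strand each, and mt-Nd6 (chrM:13552-14070) is the only 1 of the 13 mRNAs encoded on the minus strand.

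The high-mitochondrial barcodes were shallow. Their total ran from 262 to 1495 UMIs with a median of 328, and 10 of them exceeded 1000. The UMIs of nuclear genes had a median of 226 (quartiles 193 and 288) and the mt- UMIs a median of 110 (quartiles 92 and 139). The mt- share had a median of 32.6% (quartiles 28.4 and 36.5) and reached 90.2%. Together they held 592305 nuclear UMIs and 281515 mt- UMIs, which was 80.3% of all mt- UMIs of their library. A median of 187 genes was detected per barcode, and 1352 barcodes had under 200. The low-mitochondrial barcodes had a median of 620 nuclear UMIs, 447 genes and a 2.77% mt- share, and held 359696 nuclear UMIs. Across the 2275 barcodes the number of mt- UMIs rose with the number of nuclear UMIs (Spearman 0.52) while the mt- share fell (Spearman -0.42), as a description of barcodes that share 1 library.

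The same limit in the TN library was met by 84 of 2551 barcodes (3.29%, 2.63 to 4.06). The lowest deposited total was 500 UMIs in TN and 262 in 1cyc. Among 1cyc barcodes with at least 500 UMIs, 366 of 1457 passed the limit (25.1%, 22.9 to 27.4). Over this common range the share in 1cyc was thus lower than over all its barcodes and still above that in TN. The 84 TN barcodes were deeper, with a median of 491 nuclear UMIs, and 21 of them exceeded 1000 total UMIs. Their sum was uneven, since 1 barcode held 9511 of its 64436 nuclear UMIs, and 1 held 1021 of its 1077 haemoglobin and Alas2 UMIs. Between these groups lay 962 barcodes of the 1cyc library at 5 to 20%, and a further 493 were under 5% with more than 1000 UMIs. Scrublet, a doublet caller, marked 10 TN and 6 1cyc barcodes, 1 of them high-mitochondrial. That is under 0.5% of the barcodes, so doublets were in effect not assessed and none was removed. The libraries shared 6 barcode sequences, and 5 of these were high-mitochondrial in 1cyc.

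**Figure D1:**
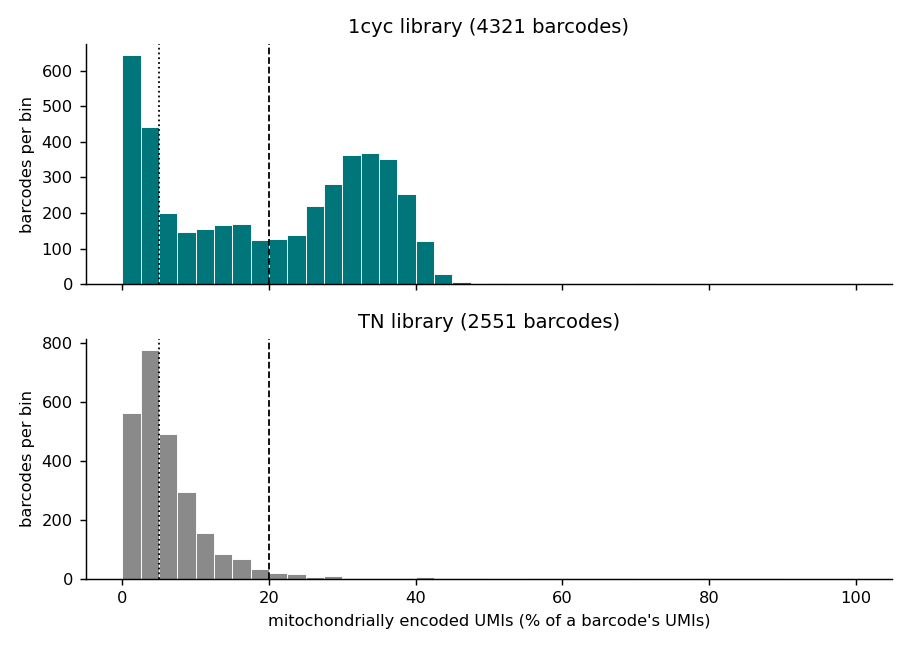
Number of barcodes (y) by the share of UMIs from mt- genes in percent (x) in the 1cyc library (top) and the TN library (bottom); the dashed line marks 20% and the dotted line 5%. In 1cyc 2275 of 4321 barcodes lie at or above 20%, with a median of 32.6%, and in TN 84 of 2551 do.

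The mt- UMIs divided unevenly among the 13 mRNAs, and the division was not used to choose the barcodes. Complex IV subunits led. mt-Co1, the catalytic subunit, gave 24.2% of all mt- UMIs of the high-mitochondrial barcodes, against 22.0% in low-mitochondrial barcodes. mt-Co3 gave 16.1% and mt-Co2 12.8%, and mt-Cytb, the cytochrome b of complex III, gave 16.2% against 13.4%. mt-Atp6, a subunit of the proton channel of ATP synthase, gave 11.6% against 11.4%. Per barcode this was 29.99 UMIs of mt-Co1 against 3.66 and 20.03 of mt-Cytb against 2.22. Every high-mitochondrial barcode had a UMI of mt-Co1, mt-Co2, mt-Co3, mt-Atp6 and mt-Cytb.

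Per kilobase of transcript the order within the high-mitochondrial barcodes was mt-Co3 with 25.3 UMIs per kb and barcode, mt-Co2 with 23.2, mt-Atp6 with 21, mt-Co1 with 19.4 and mt-Cytb with 17.5. The complex I subunits were lower, from 6.55 for mt-Nd4 and 5.91 for mt-Nd1 down to 2.12 for mt-Nd4l and 0.507 for mt-Nd5. mt-Atp8 stood at 0.358 and mt-Nd6 at 0.198. The complex IV, complex III and ATP synthase mRNAs, mt-Atp8 apart, were thus above every complex I mRNA on this scale.

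The same complex I transcripts also took a smaller part of the mt- UMIs than in low-mitochondrial barcodes of the same library. mt-Nd4l gave 0.510% against 1.97%, a ratio of 0.259 (0.223 to 0.303). mt-Nd5 gave 0.747% against 1.82%, a ratio of 0.409 (0.351 to 0.480), and mt-Nd4 7.29% against 10.2%, a ratio of 0.713 (0.669 to 0.760). These 3 are neighbours on the plus strand, from position 9877 to position 13565 of the mitochondrial chromosome. mt-Nd6, the minus-strand mRNA that ends inside mt-Nd5, gave 0.083% against 0.275%, a ratio of 0.302 (0.202 to 0.468). The low-mitochondrial value of mt-Nd6 rests on 27 UMIs. In the 1cyc barcodes at 5 to 20% mt-Nd6 gave 0.617% (0.548 to 0.692), above both classes, so it did not fall steadily with mt- share. There mt-Nd4l (1.31%), mt-Nd5 (1.60%) and mt-Nd4 (9.27%) lay between their values in the high- and low-mitochondrial barcodes. mt-Atp8, whose annotated end lies inside mt-Atp6, gave 0.059% against 0.204%, a ratio of 0.289 (0.181 to 0.486).

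Not all complex I mRNAs behaved alike. mt-Nd1 had a ratio of 0.938, mt-Nd2 of 0.820 and mt-Nd3 of 1.14 (0.928 to 1.42). mt-Cytb had 1.21 (1.14 to 1.28), mt-Co2 1.12 and mt-Co1 1.10 (1.05 to 1.15), while mt-Co3 at 1.04 and mt-Atp6 at 1.01 were near equal. The number of UMIs per barcode, which the choice of barcodes raises, was 0.631 against 0.327 for mt-Nd4l and 0.924 against 0.303 for mt-Nd5.

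In the TN library the division did not move with the mt- share in this way. The ratio between its barcodes at 20% or more and those under 5% was 1.03 for mt-Nd4l, 0.971 for mt-Nd5, 0.973 for mt-Nd6 and 1.03 for mt-Nd4. Set directly against the 84 TN barcodes, the 2275 barcodes after cold had 0.461 times the share of mt-Nd4l, 0.393 times that of mt-Nd5, 0.381 times that of mt-Nd6 and 1.24 times that of mt-Cytb. The difference between libraries was not tested.

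Length and internal runs of A are given here for some of these mRNAs, and the relation of sequence properties to the ratios was not tested. Internal runs of A can prime reverse transcription, and the longest run was 7 bases in mt-Nd5, mt-Nd4 and mt-Co1, 4 in mt-Nd4l and mt-Co2 and 3 in mt-Nd6. mt-Nd4l is 297 bases long, mt-Atp8 204 and mt-Nd6 519, but mt-Nd5, at 1824 bases, is longer than mt-Co1 at 1545.

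**Figure D2:**
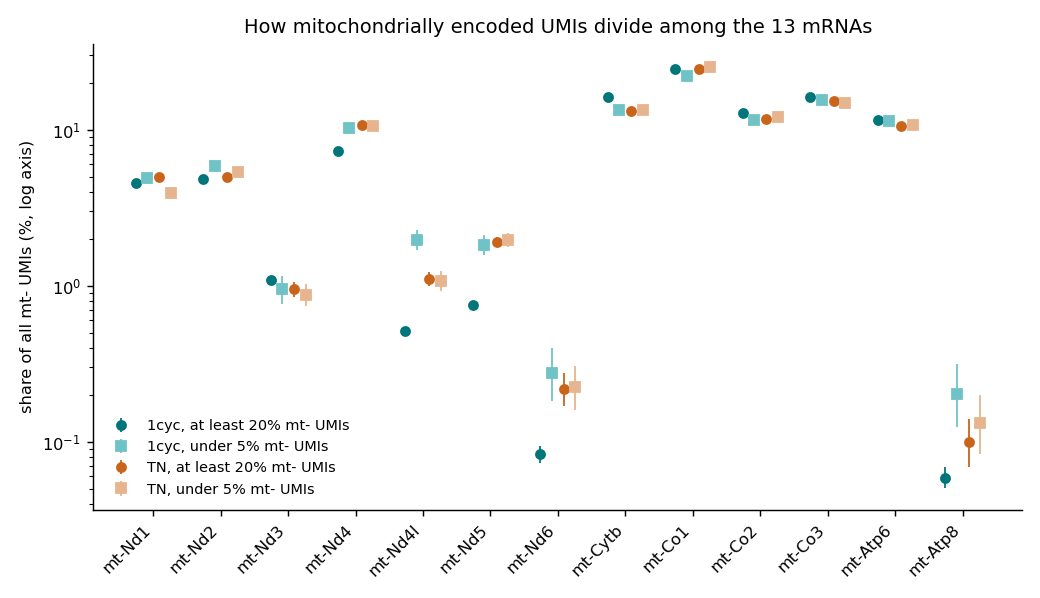
Share of all mt- UMIs from each of the 13 mRNAs (y, percent, log axis) in high-mitochondrial (at least 20%) and low-mitochondrial (under 5%) barcodes of both libraries; bars are exact 95% intervals for counting error. In 1cyc mt-Nd4l gives 0.510% against 1.97% and mt-Nd5 0.747% against 1.82%, while the 2 TN classes lie close together for these genes.

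Among nuclear genes, 1874 of the 16682 with a UMI held at least 100 UMIs over both sums and were compared. At least 1.5-fold higher in the high-mitochondrial barcodes were 87 of them (4.64%), and 166 were at least 1.5-fold lower (8.86%). The ratio lay within 1.5-fold for 1621 genes (86.5%), and the median log2 ratio was -0.11. A 2-fold change or more was reached by 25 genes upwards and 15 downwards. Scaling on all UMIs instead moved the median log2 ratio to -0.64 and gave 20 higher and 1047 lower genes, so the direction of a ratio near 1 depends on the scale. The split was 101 to 136 with TMM scaling and 113 to 115 with Malat1 left out of the scale.

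Myo3a, which encodes a class III myosin motor known from hair cells of the inner ear, had the highest ratio of the named genes. It had 1096 UMIs in the high-mitochondrial barcodes against 38, or 1850 CPM against 106, a ratio of 17.5 (12.7 to 24.9). Its level was 1109 CPM in the barcodes at 5 to 20% and 61.7 CPM in the deep barcodes under 5%. In TN it had 35 UMIs against 36, under the minimum of 100 for a comparison, and a ratio of 8.19 (4.99 to 13.4). Myo3a, Pnpla3 and Tkt were proposed as markers from earlier results on these same data, so their levels are a description.

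The span of Myo3a (chr2:22227503-22618252, + strand) was the only 1 among the compared genes to contain annotated gene models that share a run of at least 25 bases with a mitochondrial transcript. There were 3, all pseudogenes on the opposite strand and outside every annotated Myo3a exon. Gm13341 (chr2:22587291-22587962) shared a run of 173 bases with mt-Co2, Gm13340 (chr2:22588103-22589647) 148 bases with mt-Co1, and Gm13339 (chr2:22590024-22590533) 129 bases with mt-Nd2. Aligned without gaps, Gm13340 and mt-Co1 were identical at 1508 of 1545 bases (97.6%) and Gm13341 and mt-Co2 at 499 of 672 (74.3%). None of the 3 has a row of its own in the count tables. The stretch of Gm13340 with the longest run is shown because a read from it cannot be told from a read of mt-Co1 (chrM:5641-5788, + strand). It is printed on the minus strand, chr2:22589177-22589344, mm10, and capitals mark the identical bases.
Gm13340: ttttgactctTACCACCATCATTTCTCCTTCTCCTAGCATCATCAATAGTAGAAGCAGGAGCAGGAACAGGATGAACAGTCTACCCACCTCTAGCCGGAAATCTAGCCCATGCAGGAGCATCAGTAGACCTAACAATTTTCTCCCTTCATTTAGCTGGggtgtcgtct

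Set against mt- UMIs in place of nuclear UMIs, Myo3a had 38.9 UMIs per 10000 mt- UMIs in the high-mitochondrial barcodes (36.7 to 41.3) and 38.7 in the low-mitochondrial ones (27.4 to 53.2). The deep barcodes under 5% had 38.4 (28.4 to 50.8). The mt- UMIs chose the barcodes, so values on this scale are a description and support nothing. The barcodes at 5 to 20% stood apart with 88.5 (80.1 to 97.4), and the TN classes were lower, with 10.6 (7.38 to 14.7) at 20% or more and 20.7 (14.5 to 28.6) under 5%. Whether UMIs counted to Myo3a came from the mitochondria-like stretches was not tested.

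A second nuclear gene carried mitochondrial sequence in its own exon. Gm20594 is a gene model of 1 exon (chr6:79817916-79818364, + strand, mm10) with 163 UMIs against 22, or 275 CPM against 61.2, a ratio of 4.50 (2.87 to 7.38). In TN it had 39 UMIs against 32, also under the minimum, and a ratio of 10.3. Of 1872 compared genes with an annotated transcript it was the only 1 to share a run of 25 bases with a mitochondrial transcript. The run was 65 bases long and identical to mt-Rnr2, the large mitochondrial ribosomal RNA, at chrM:2102-2166. The count tables have no row for mt-Rnr2 or mt-Rnr1. Bases 358 to 442 of the transcript are shown with the run in capitals.
Gm20594: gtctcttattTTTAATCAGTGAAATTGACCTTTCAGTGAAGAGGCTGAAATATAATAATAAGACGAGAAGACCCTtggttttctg
Per 10000 mt- UMIs, Gm20594 had 5.79 (4.94 to 6.75) in high-mitochondrial and 22.4 (14.1 to 33.9) in low-mitochondrial barcodes, with the same limit. The gene was looked at after its value was seen.

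Tkt and Pnpla3, the other proposed markers, differed little. Tkt, transketolase of the pentose phosphate pathway (chr14:30548359-30574720, + strand), had 673 UMIs against 277, or 1136 against 770.1 CPM, a ratio of 1.48 (1.28 to 1.70) that is below the 1.5-fold limit. Pnpla3, a lipase and acyltransferase of lipid droplets (chr15:84167837-84187236, + strand), had 283 against 130 UMIs, or 478 against 361 CPM, a ratio of 1.32 (1.07 to 1.64) that fell to 0.921 when scaled on all UMIs. In TN both were below the low-mitochondrial barcodes. Tkt had 7 UMIs there against 190, a ratio of 0.310 (0.123 to 0.652). Pnpla3 had 0 against 60, which is 2.38-fold lower with 0 set to the floor of 3 counts over the group. This fold is not a bound, since the exact 95% interval for the Pnpla3 ratio reached up to 0.534. Whether these ratios differ between the libraries was not tested. The other proposed markers, mt-Co1 and mt-Cytb, are among the genes that chose the barcodes.

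Behind Myo3a, the highest ratios of the genes named by rank were those of Actb, Tmsb4x, Cfd, Gpx3 and Gsn. Actb, cytoplasmic actin, had 208 UMIs against 14, or 351 against 38.9 CPM, a ratio of 9.02 (5.26 to 16.8). Tmsb4x, which binds actin monomers, had 106 UMIs against 11, a ratio of 5.85 (3.14 to 12.1). Such genes passed the minimum count through the high-mitochondrial barcodes, where they were high. The secreted adipocyte protease Cfd (adipsin) had 233 against 55.6 CPM, a ratio of 4.19 (2.61 to 7.07). The secreted glutathione peroxidase Gpx3 had 236 against 63.9 CPM, a ratio of 3.70 (2.37 to 6.02), and Gsn, which severs actin filaments, 292 against 89.0 CPM, a ratio of 3.28 (2.24 to 4.95). Of these 5 only Tmsb4x reached 100 UMIs in TN, where it had 86 against 27, a ratio of 26.8. The others had too few UMIs there to be compared, from 19 against 18 for Actb to 22 against 60 for Gpx3. Given as values only, their TN ratios were 8.89 (4.42 to 18.0) for Actb and 3.30 (1.86 to 5.64) for Cfd. Gpx3 had 3.09 (1.80 to 5.11) and Gsn 3.54 (2.02 to 6.00), so their direction was the same as in 1cyc.

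Car3, a carbonic anhydrase abundant in fat, had the most UMIs among the 12 higher genes named by rank. It had 1290 UMIs against 391, or 2178 against 1087 CPM, a ratio of 2.0 (1.79 to 2.25), whereas its TN ratio was 0.554 (0.392 to 0.763). Gpx4, which reduces lipid hydroperoxides in membranes, had a ratio of 2.51 (1.69 to 3.81). Smaller counts stood behind Ddx3y, an RNA helicase (2.52), Igsf8 (2.48), Clec2d (2.29) and the splicing factor Srsf2 (2.25).

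The lower genes were led by Taco1, a nuclear-encoded activator of the translation of mt-Co1 (chr11:106066061-106073612, + strand). It had 401 UMIs against 1750, or 677 against 4865 CPM, a ratio of 0.139 (0.125 to 0.155). Its level was 3492 CPM in the barcodes at 5 to 20% and 2094 CPM in the deep barcodes under 5%. In TN its ratio was 0.658. Cmss1 had 879.6 against 2146 CPM, a ratio of 0.410 (0.366 to 0.459), but was higher in the TN barcodes at 20% or more, with a ratio of 2.83 (2.39 to 3.34). The 1cyc ratio of Cmss1 was above 1 when barcodes with at least 2 non-adipocyte marker UMIs were left out, which left 77 high-mitochondrial barcodes. Both genes overlap a gene on the opposite strand (Taco1os and Filip1l), and no source used here says whether the counting used strand.

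The other lower genes named by rank had ratios from 0.400 to 0.549. The chromatin remodeller Atrx had 203 UMIs against 308, or 343 against 856 CPM, a ratio of 0.400. Prdm16, a transcription factor that sets brown adipocyte identity, had 174 against 210 UMIs, or 294 against 584 CPM, a ratio of 0.503 (0.409 to 0.618), with 0.576 in TN. Ratios for the rest were 0.427 for Parva, an actin-linked adhesion protein, 0.432 for the anchoring protein Akap9, 0.443 for the repressor Etv6, 0.458 for the splicing kinase Prpf4b, 0.488 for the transcription factor Zbtb16, 0.494 for the chromatin regulator Ankrd11, 0.540 for D5Ertd579e and 0.549 for Golgb1, a Golgi membrane protein. Of the 27 named nuclear genes, 19 overlap another annotated gene, and the share among all compared genes was not computed.

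**Figure D3:**
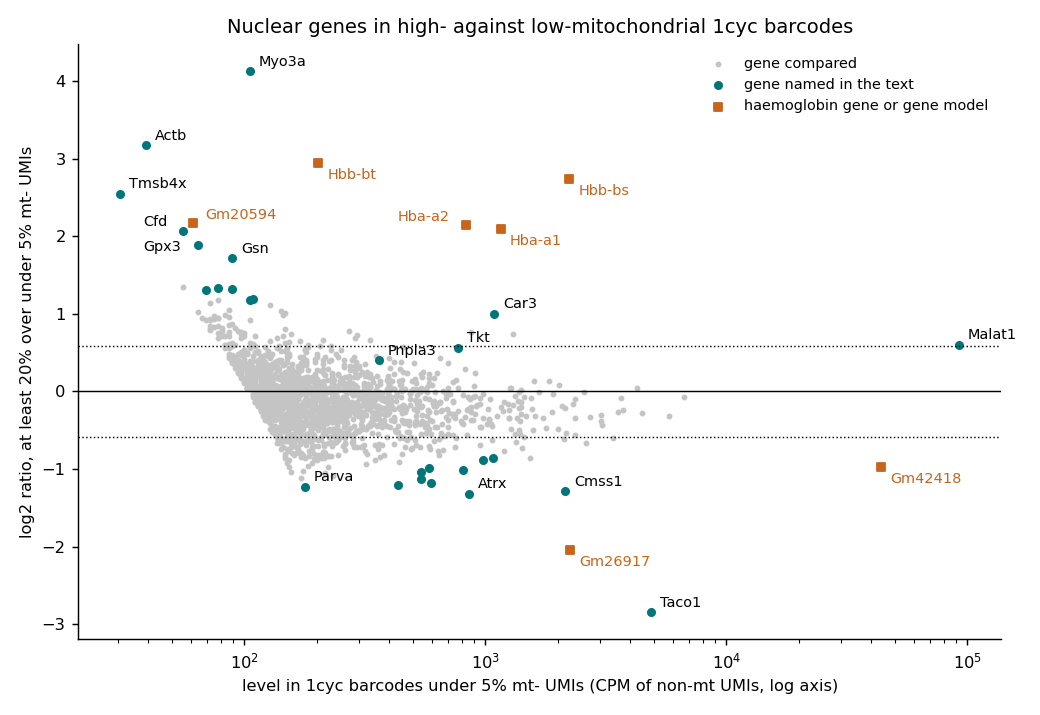
Log2 ratio of CPM, high-mitochondrial over low-mitochondrial 1cyc barcodes (y), against CPM in the low-mitochondrial barcodes (x, log axis) for the 1874 genes compared; dotted lines mark 1.5-fold and named genes are labelled. Most genes (86.5%) lie between the lines, with Myo3a at a ratio of 17.5 and Taco1 at 0.139 as the extremes among the named genes.

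The ratio moved with the length of the gene. For the 78 compared genes that span under 10 kb the median log2 ratio was 0.54, and 36 of them (46.2%) were at least 1.5-fold higher. The median was 0.11 for 246 genes of 10 to 30 kb, -0.09 for 775 genes of 30 to 100 kb, -0.19 for 597 genes of 100 to 300 kb and -0.32 for the 177 genes over 300 kb, of which 35 (19.8%) were at least 1.5-fold lower. A ratio above 1 was found for 78.2% of the shortest and 12.4% of the longest genes. Within each of 3 levels of mean CPM the median was 0.47 to 0.56 for genes under 10 kb and -0.27 to -0.16 for genes of 100 kb or more. In TN the medians had no such order, with -0.47 for the shortest, -0.91 for 10 to 30 kb and -0.42 for the longest.

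**Figure D4:**
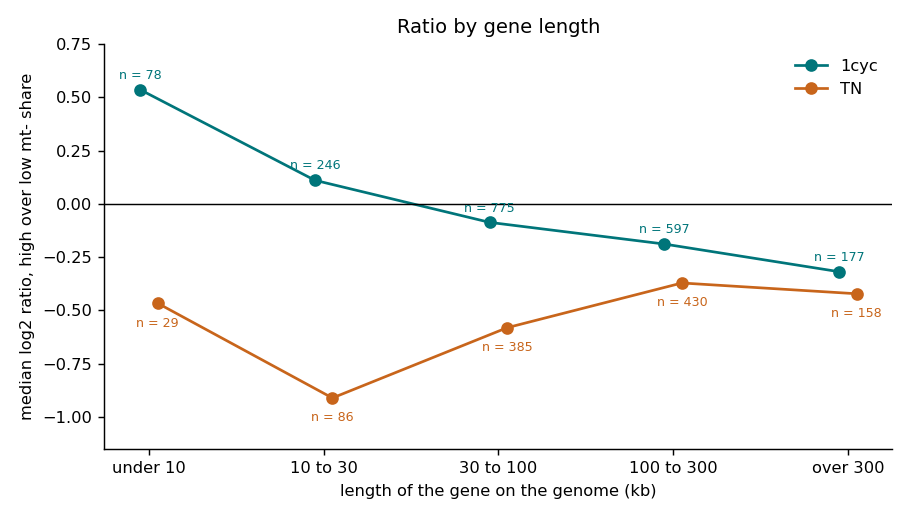
Median log2 ratio of CPM between high- and low-mitochondrial barcodes (y) for genes in 5 classes of genomic span (x, kb) in both libraries. In 1cyc the median falls from 0.54 for genes under 10 kb to -0.32 for genes over 300 kb, and in TN it is below 0 in every class.

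Malat1 (chr19:5795690-5802672, - strand) gave 83172 of the 592305 nuclear UMIs. It stood at 140421 CPM against 92395, a ratio of 1.52 (1.5 to 1.54). With mt- UMIs included, Malat1 gave 83172 of 873820 UMIs against 33234 of 369509, so the ratio is smaller on that scale and close to 1. The cause was not tested. The deep barcodes under 5% had 127540 CPM, and in TN the ratio was 0.697 (0.678 to 0.716). Nuclear-retained non-coding RNAs as a list had a summed ratio of 1.48, but 4 of its 6 measured members were below 1 (Kcnq1ot1 0.732, Neat1 0.766 and Airn 0.883 among them), 2 passed 1.5-fold (Malat1 and Meg3 at 2.02), the median log2 ratio was -0.13, and the ratio of the sum was 0.883 with Malat1 left out of both the list and the scale. Over all compared genes 4.64% were at least 1.5-fold higher. The gene models Gm42418 and Gm26917, which are not on this list, were lower (22277 against 43742 CPM, a ratio of 0.509, and 544 against 2246 CPM, a ratio of 0.242). In TN their ratios were 1.56 (1.52 to 1.61) and 0.554. Gm42418 overlaps CT010467.1 and AY036118 on the opposite strand, and the origin of its UMIs was not tested.

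Haemoglobin transcripts, the products of red blood cell precursors, were spread over nearly all high-mitochondrial barcodes. At least 1 UMI of haemoglobin or Alas2, which starts haem synthesis in these cells, was found in 2220 of 2275 (97.6%), with a median of 6 per barcode (quartiles 4 and 8) and a maximum of 45. Among low-mitochondrial barcodes 19.6% had one. Thinned to 200 nuclear UMIs, which left 1587 high-mitochondrial barcodes and left out 688, the shares were 96.7% and 8.97%, with 56.2% at 5 to 20%, 21.8% in TN at 20% or more and 9.75% in TN under 5%. The summed level was 25117 against 4420 CPM, a ratio of 5.68 (5.40 to 5.99). In the low-mitochondrial class, however, 2 barcodes held 1450 of the 1590 UMIs, and without barcodes above 10% haemoglobin the ratio was 64.1, a value added after the data were seen. The deep class under 5% stood above the high-mitochondrial barcodes, at 75530 CPM, and 15 of its barcodes held 59897 of 60031 such UMIs. With these deep barcodes included in the comparison the ratio was below 1. Hbb-bs gave 59.4% of the haemoglobin UMIs of high-mitochondrial barcodes, Hba-a1 19.7%, Hba-a2 14.7% and Hbb-bt 6.24%, against 55.8, 21.4, 15.7 and 7.07% in the deep barcodes. Haemoglobin UMIs were thus few per barcode but spread over nearly all high-mitochondrial barcodes. At 5 to 20%, 611 of 962 barcodes (63.5%) had such a UMI, and the 6 barcodes above 10% haemoglobin held 311 of 2749. Under 5%, a handful of barcodes held most of these UMIs. The part of these transcripts in the other results was not tested.

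Adipocyte genes were at much the same level in both classes. All 12 adipocyte markers were measured and summed to 14484 against 13320 CPM, a ratio of 1.09 (1.05 to 1.13) that fell to 0.757 when scaled on all UMIs. Fabp4, the fatty acid carrier of adipocytes, was the 1 past 1.5-fold, with 2178 against 1304 CPM (ratio 1.67), and none was lower. Of all compared genes 4.64% were higher and 8.86% lower. The median log2 ratio was 0.05. Of 10 markers measured in TN, 8 were lower in its barcodes at 20% or more, as were 45.8% of all genes compared there, while Fabp4 had a ratio of 6.97 and the sum a ratio of 0.945.

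Most marker lists of other cell types were at similar levels in both classes. Endothelial markers summed to 441 against 442 CPM (ratio 0.997), skeletal muscle to a ratio of 0.929, mast cell to 0.782 and Schwann cell to 0.835. Pericyte markers had a ratio of 1.18 (0.839 to 1.68), macrophage markers 1.35 (1.03 to 1.77) with 0.937 when scaled on all UMIs, and lymphocyte markers 2.73 from 54 against 12 UMIs. The fibroblast sum had a ratio of 1.20 (1.03 to 1.39), 0.833 when scaled on all UMIs, while its median log2 ratio was -0.63, since Gsn was at 3.28 and Lama2 and Bmper at 0.648 and 0.541. Lymphatic (4 against 5 UMIs), smooth muscle (5 against 13) and mesothelial (7 against 2) markers were nearly absent. In TN, by contrast, endothelial markers had a ratio of 11.7, pericyte markers 9.98, macrophage markers 4.28 and lymphocyte markers 6.22, whereas skeletal muscle markers had 2 UMIs against 623, a ratio of 0.027 (0.003 to 0.098).

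After thinning to 200 nuclear UMIs, at least 3 endothelial UMIs were found in 0.126% of high-mitochondrial and 1.02% of low-mitochondrial barcodes, at least 3 fibroblast UMIs in 0.126 and 2.20%, and at least 3 skeletal muscle UMIs in 0 of 1587, which allows a share of up to 0.189%, and 0.677%. A share with any skeletal muscle UMI was nonetheless higher, at 10.0% against 1.86%. The variance of the summed UMIs across barcodes divided by their mean, which is 1 where UMIs fall at random, was 1.07 against 1.94 for endothelial, 1.05 against 2.61 for fibroblast and 1.07 against 20.1 for skeletal muscle markers. Over 59 genes with a mean of at least 0.2 UMIs this quotient had a median of 1.02 (quartiles 0.991 and 1.06) in high-mitochondrial and 1.14 in low-mitochondrial barcodes, and was lower in the former for 49 genes. The high-mitochondrial barcodes were thus more alike than the others at equal depth. The number of genes per barcode was near equal, with a median of 159 against 162.

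At an equal depth of 200 nuclear UMIs the leading differences were as follows. A Myo3a UMI was found in 30.9% against 2.37% of thinned barcodes, an Actb UMI in 6.30% against 0.846%, a Car3 UMI in 34.7% against 18.6% and a Fabp4 UMI in 35.6% against 20.6%. Taco1 was found in 13.3% against 58.4%. Tkt at 20.3% against 14.7% and Pnpla3 at 8.76% against 6.60% differed less.

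Genes of thermogenesis had a summed ratio slightly below 1, with a median near that of all compared genes. The thermogenesis list summed to 13348 against 15544 CPM, a ratio of 0.859 (0.830 to 0.889), with 1.03 when deep low-mitochondrial barcodes were included. Of its 10 measured members 2 were lower (Prdm16 and the coactivator Ppargc1b at 0.633) and none higher, against 8.86% and 4.64% of all compared genes, and the median log2 ratio was -0.07, against -0.11 for all. Ucp1 had 147 against 101 UMIs, or 248 against 281 CPM, a ratio of 0.884 (0.681 to 1.15), a difference not detectable at this depth. In TN all 8 measured members were lower, where 45.8% of all compared genes were, and the sum had a ratio of 0.327.

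The lipid lists were likewise close to 1 in 1cyc. Fatty acid synthesis genes had a ratio of 0.932 (0.887 to 0.980), with 1.03 when deep low-mitochondrial barcodes were included, and 1 of 10 was lower (Acss2, which makes acetyl-CoA, at 0.664). Lipolysis genes had 0.848 (0.812 to 0.887), with 1 of 8 lower (the monoglyceride lipase Mgll at 0.604). Triglyceride and droplet genes had 1.00 (0.948 to 1.06), with Dgat1, which makes triglyceride, higher at 1.72 and the acyltransferases Gpam and Agpat3 lower at 0.573 and 0.651 among 12. Fatty acid oxidation genes had 0.948 (0.896 to 1.00), with Decr1, a reductase for unsaturated fatty acids, at 1.53. Of all compared genes 4.64% were higher and 8.86% lower, so these few members do not set the lipid lists apart. The TN ratios of these lists were 0.450, 0.447, 0.333 and 0.522.

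The lists of nuclear genes for mitochondrial proteins had ratios from 0.873 to 1.35. The nuclear-encoded respiratory subunits summed to 2278 against 1685 CPM, a ratio of 1.35 (1.23 to 1.49) that was 0.941 on all UMIs. Of 10 measured, Cox5a of complex IV was higher at 1.54 and Atp5c1 of ATP synthase lower at 0.508, as were 4.64% and 8.86% of all compared genes. The machinery of mitochondrial transcription and translation had a ratio of 0.873 (0.744 to 1.03), and genes of mitochondrial fusion, fission and mitophagy 1.07 (0.948 to 1.21). Mitochondrial carriers had 1.20 (1.07 to 1.33), 0.832 on all UMIs, with Slc25a51, which carries NAD, at 1.62. TN ratios were 1.87 for the respiratory subunits, 0.629 for the machinery, 0.586 for fusion and fission and 0.492 for the carriers.

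Among the remaining lists, cytosolic ribosomal protein genes, which have short abundant mRNAs, had 1353 against 321 UMIs over 85 genes, a ratio of 2.56 (2.27 to 2.90) and 16.4 in TN, although none reached 100 UMIs alone. The white adipocyte list had a ratio of 1.76 (1.61 to 1.93) with Cfd, Car3 and the imprinted gene Nnat (1.97) higher and the natriuretic peptide receptor Npr3 (0.584) lower. Myosin and actin genes had 2.75 (2.46 to 3.07), carried by Myo3a and Actb, with Myo18a at 0.563. Glucose and pentose phosphate genes had 1.22 (1.12 to 1.32), 0.849 on all UMIs, with Ldhb of lactate dehydrogenase at 1.70. Heat shock and immediate early genes had 1.41 (1.17 to 1.72), 0.985 on all UMIs, and apoptosis and p53 genes 1.01 (0.816 to 1.25).

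Divided into bands of mt- share, the 1cyc barcodes of up to 1000 UMIs changed in steps that did not all fall at 20%. Myo3a stood at 37.7 CPM in the 193 barcodes under 2% and at 145, 598 and 1818 CPM in the bands at 2 to 5, 5 to 10 and 10 to 15%, and then stayed between 1541 and 2488 CPM. Haemoglobin stood at 6283 CPM under 2%, 3333 at 2 to 5% and 2578 at 5 to 10%, and then at 11449 at 10 to 15%, 17468 at 20 to 25% and 31084 at 40% and over. Taco1 stood at 4254 CPM under 2%, 5222 at 2 to 5% and 5545 at 5 to 10%, and then at 2969 at 10 to 15%, 1989 at 15 to 20%, 1016 at 20 to 25% and 420 at 40% and over. From the 5 to 10% band upwards haemoglobin was higher and Taco1 lower in each next band, while in the bands below it the order was the opposite for both. The 2 barcodes rich in haemoglobin hold most of its UMIs under 5%.

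Other genes had their own course. Car3 stood at 1003 CPM under 2%, 1136 at 2 to 5% and 792 at 5 to 10%, and was higher in each next band up to 2878 at 40% and over. Malat1 was highest, at 161737 CPM, in the 20 to 25% band and fell to 115494 at 40% and over, so within the high-mitochondrial barcodes it declined as mt- share rose. The share of mt-Nd4l among mt- UMIs fell from 2.06% at 2 to 5% through 1.26% at 10 to 15% and 0.72% at 20 to 25% to 0.44% at 35 to 40%. The thermogenesis list lay between 12620 and 16896 CPM throughout.

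**Figure D5:**
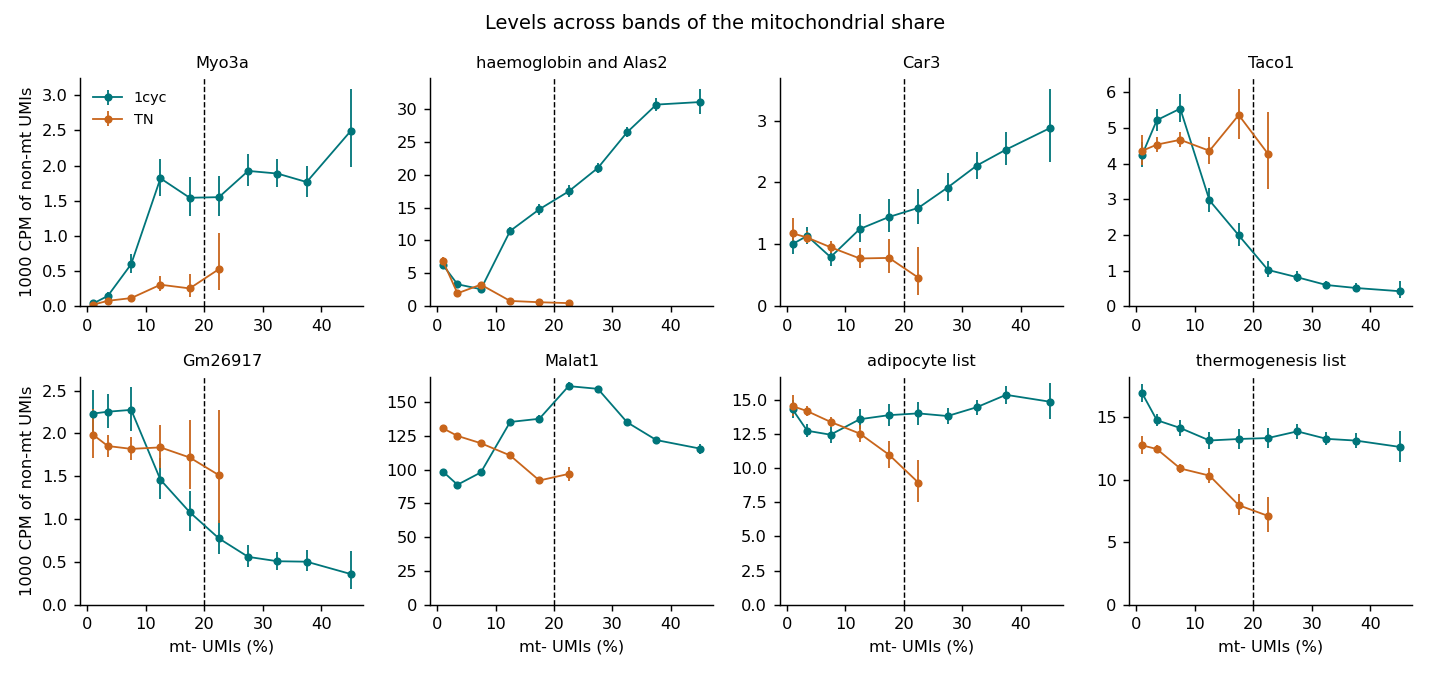
Level (y, 1000 CPM of nuclear UMIs) of 6 genes or gene sums and 2 gene lists by band of mt- share (x, percent of UMIs; 40% and over drawn at 45) in 1cyc and TN, with bands of under 20 barcodes not drawn. In 1cyc Myo3a reaches its plateau by 10 to 15%, haemoglobin goes from 2578 CPM at 5 to 10% to 31084 and Taco1 from 5545 to 420 CPM, while the thermogenesis list stays within 12620 to 16896 CPM.

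Barcodes on either side of the limit were alike in most values. The 44 barcodes at 19 to 20% and the 59 at 20 to 21% had median totals of 307 and 311 UMIs. Haemoglobin stood at 15965 CPM (13781 to 18396) just outside and 17142 (15196 to 19267) just inside, and Myo3a at 1421 (828 to 2275) and 1769 CPM (1185 to 2541). Taco1 was at 1839 and 793 CPM, Tkt at 1254 and 305 CPM, and mt-Nd4l at 1.07 and 0.759% of mt- UMIs.

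The TN barcodes at 20% or more differed from their own low-mitochondrial barcodes in many more genes. In that TN sum 1 barcode held 9511 of the 64436 nuclear UMIs. Of its 84 barcodes, 21 exceeded the 1000 total UMIs to which the TN barcodes under 5% were limited. In TN 1088 genes were compared, of which 96 lay 1.5-fold or more above (8.82%) and 498 that far below (45.8%) in barcodes at 20% or more, with a median log2 ratio of -0.50. Of the 26 genes higher in 1cyc and compared in both, 10 were higher and 8 lower in TN, and of the 98 lower in 1cyc, 40 were lower and 15 higher in TN. As a description over the 1874 genes, the Spearman correlation of the high-mitochondrial profile was 0.884 with the deep 1cyc barcodes under 5%, 0.846 with those at 5 to 20%, 0.841 with the low-mitochondrial ones and 0.824 with TN low-mitochondrial barcodes. With the TN barcodes at 20% or more it was 0.550, a sum of 64436 UMIs that carries more counting noise.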

How the data were processed

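The members and lists were chosen with earlier results of these data known, and the earlier report named Myo3a, Pnpla3 and Tkt. The authors deposited tables of UMI counts by gene and barcode, not normalized. The submitters' processing notes name Cell Ranger 3 and mm10, and per the file headers the matrices were written by version 3.1.0. Neither the annotation version nor the treatment of intronic reads is given in the sources used here.

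From these counts, UMIs were summed over the barcodes of each class and scaled to 1e6 UMIs of genes not starting with mt-. Only genes with 100 or more UMIs in the 2 sums together were compared, and a ratio of at least 1.5-fold either way was counted. TN was filtered by itself in the same way, and TN ratios of named genes are given also below that minimum, as values only. Sums carry exact Poisson intervals, ratios exact conditional binomial intervals and shares exact Clopper-Pearson intervals, all at 95% and for counting error alone. No test was made, because each condition is 1 pooled library. The libraries held 2745808 UMIs over 2551 barcodes (TN, median 800) and 2469900 over 4321 (1cyc, median 378). Sums were tested on simulated data before use.

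Named genes were the 12 highest and 12 lowest by the interval bound nearest to 1, leaving out mt-, haemoglobin and ribosomal protein genes and gene models without a name (7 of these higher, 8 lower), plus Myo3a, Pnpla3, Tkt, Malat1 and the 13 mt- genes. From each list up to 2 of the highest and 2 of the lowest members were named. The 13 cell type lists and the other lists were described by counts, sums and medians. Among the listed symbols Snhg14 matched no row and Aldoa matched 2. Some results on listed genes are not reported here. For shares of barcodes, each barcode was thinned to 200 nuclear UMIs and shallower ones were left out. The proposed markers gave a summed ratio of 2.80 for Myo3a, Pnpla3 and Tkt together.

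Positions and transcripts came from GENCODE M21 (mm10), which matched 31011 of 31053 identifiers. Runs of 25 bases shared with mitochondrial transcripts were searched on both strands of annotated transcripts. Intronic sequence was not used here. Analyses used Python with numpy 2.4.6, scipy 1.17.1, pandas 2.3.3 and scanpy 1.11.5 (Scrublet), matplotlib 3.10.9, and R 4.3.3 with the scaling factors of edgeR 4.0.16 (TMM) and DESeq2 1.42.0 (median of ratios) as alternatives.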

Additional observations from a re-analysis of the deposited data

Results flagged for a closer look

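The values below stood out because the ratio of high- to low-mitochondrial barcodes lay above 1 in 1 library and below 1 in the other, with intervals apart from 1 in both. None of these differences between libraries was tested. Depth differed between the libraries, with a median of 226 nuclear UMIs in the 1cyc and 491 in the TN barcodes at 20% or more. A ratio below 1 was also common in TN, where 45.8% of the compared genes passed the 1.5-fold limit downwards and 8.82% upwards. The median log2 value of all TN ratios was -0.50. Cell markers differed too, since the endothelial sum had a ratio of 11.7 in TN and 0.997 in 1cyc.

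Car3 had a ratio of 2.0 in 1cyc and 0.554 in TN. The white adipocyte list, which holds Car3, had 1.76 and 0.595. Cmss1 went the other way, with 0.410 in 1cyc and 2.83 in TN. Malat1 had 1.52 and 0.697, and the list of nuclear-retained non-coding RNAs, which Malat1 dominates, 1.48 and 0.700. Tkt had 1.48 and 0.310, and the glucose and pentose phosphate list that contains it 1.22 and 0.689. Pnpla3 had 1.32 in 1cyc and 0.421 in TN, where 0 UMIs in the barcodes at 20% or more were set to the floor of 3 counts against 60 UMIs. Mitochondrial carriers had 1.20 and 0.492. When scaled on all UMIs, the 1cyc ratios of Pnpla3, the glucose and pentose phosphate list and the carriers were below 1. Those of Malat1 and Tkt were closer to 1 on that scale. Leaving out barcodes with at least 2 non-adipocyte marker UMIs left 77 high-mitochondrial barcodes. In that setting the 1cyc ratios of Tkt, the glucose list and the carriers were below 1 and that of Cmss1 above 1.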

How the results depend on the processing

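Each condition is 1 library, so no value has a replicate check. No paired analysis was possible because each condition is 1 library. Under the alternative settings below, ratios with 3 or fewer UMIs on either side are not given. The main TN values for skeletal muscle markers (2 UMIs) and Pnpla3 (0 UMIs) are such ratios and are given above. The shallow depth limits all genes under 100 UMIs. Of 434 values of named genes under alternative settings 367 moved by less than their interval, 64 by more and 3 reversed. Of 444 values of lists these numbers were 338, 92 and 14. The causes were not tested.

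The share of 1cyc barcodes counted was 34.9% at a 30% limit, 59.4% at 15%, 25.1% with at least 500 UMIs and 33.7% with at least 200 genes. With a 30% limit the erythroid ratio was 6.44 and mt-Nd6 gave 0.057% of mt- UMIs; with 15% the erythroid ratio was 5.38. Against barcodes under 2% the ratios were 1.01 (adipocyte), 4.00 (erythroid) and 0.790 (thermogenesis). With no upper limit on totals 160 genes were higher and 133 lower, and the ratios were 0.471 (erythroid), 1.51 (nuclear respiratory), 1.03 (thermogenesis), 1.03 (fatty acid synthesis) and 2.05 (cytosolic ribosomal). Within 200 to 500 nuclear UMIs 65 genes were higher and 100 lower, with 1.14 (adipocyte), 0.724 (macrophage) and 48.7 (erythroid).

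Scaling on all UMIs gave 20 higher and 1047 lower genes, with 0.757 (adipocyte), 0.833 (fibroblast), 0.937 (macrophage), 3.96 (erythroid), 0.941 (nuclear respiratory), 0.598 (thermogenesis), 0.849 (glucose), 0.985 (heat shock), 0.832 (carriers), 1.78 (cytosolic ribosomal) and 0.921 (Pnpla3). Without Malat1 in the scale or in any list the ratios were 1.15 (adipocyte), 6.00 (erythroid), 0.883 (non-coding RNAs) and 0.907 (thermogenesis). A minimum of 30 UMIs gave 629 higher and 559 lower of 5125 genes, and 300 gave 13 and 43 of 437.

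Leaving out barcodes with at least 2 non-adipocyte marker UMIs left 77 members, because haemoglobin counted, and 438 low-mitochondrial barcodes. It gave 20 higher and 122 lower genes and ratios of 1.14 (adipocyte), 11 (erythroid), 1.99 (nuclear respiratory), 0.758 (thermogenesis), 0.894 (glucose), 0.788 (carriers), 5.72 (cytosolic ribosomal), 1.26 (Cmss1) and 0.754 (Tkt). Not counting haemoglobin, a setting added after the data were seen, left 1914 and 469 barcodes, 65 higher and 147 lower genes, and ratios of 1.04, 4.55, 0.774 and 3.03 for the adipocyte, erythroid, thermogenesis and cytosolic ribosomal lists. Without barcodes over 10% haemoglobin, also added, the erythroid ratio was 64.1. Thinned to 100 UMIs, 16.5% of members had a Myo3a UMI and 88.3% an erythroid one.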
